A study of Mus musculus with 6 samples.

Results

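The KLF transcription factor genes were examined for occupancy by RNA polymerase II (Pol II) in WT and Armc5 knockout mouse neural precursor cells (NPCs). The group was chosen by gene symbol, with earlier results of these data known. It holds Klf2, Klf3, Klf4, Klf6, Klf7, Klf9, Klf10, Klf13, Klf15 and Klf16. These are 10 of the 12107 genes for which reads were counted, and 30 of the 36321 counted regions, because each gene has a promoter, a gene body and a region at the transcription end site (TES). A further 3 KLF genes, Klf5, Klf11 and Klf12, were counted and are described only beside the 10.

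Chromatin carrying Pol II was immunoprecipitated with D8L4Y, an antibody that binds the N-terminal part of the largest subunit, POLR2A, and the DNA was sequenced (ChIP-seq). The NPCs grew as neurospheres in EGF at 20 ng/ml, were taken at the second passage, and came from e13.5 fetuses (ganglionic eminences) of the labelled strain 129 sv X CD1, where the study's methods name a CD1 x C57BL/6 F1 background instead. The WT group and the group with genotype Armc5(-/-), called KO, had 3 libraries each, in replicate pairs 1 to 3, and both were fixed in 1% formaldehyde in the same way. ARMC5 is the substrate-recognition subunit of a ubiquitin ligase that acts on POLR2A, so the question was where Pol II accumulates or declines when it is missing. The KO lacks ARMC5 in the whole fetus, so effects within the cultured cells and effects carried over from the fetus cannot be told apart.

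Total counts ranged from 14528870 to 25199455 per library. Armc5 itself was not analysed here, but the promoter of 9130023H24Rik, a gene that overlaps Armc5, had 290 to 414 reads per WT library and 0 to 31 per KO library. Of the neural stem cell markers, 14 of 17 were measured, and their gene bodies had a median percentile of 98.0 among all genes ranked by WT signal per kb (Sox2 99.2, Nes 95.8), whereas the single measured endothelial marker, Kdr, was at percentile 3.68. Pair 3 had the smallest promoter shares, 6.04% of reads in WT and 6.88% in KO, against 10.9% to 12.2% in the other libraries. WT replicate 3 had 0.619 CPM over 4 Y-linked genes, against 124 to 234 CPM in the other 5 libraries. In a pool of cells, fewer cells with Pol II on a gene and less Pol II per cell cannot be told apart, and a change common to all genes would be removed by the scaling.

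KLF proteins bind GC boxes and CACCC boxes in DNA through zinc fingers at their carboxyl end, and differ in the part that recruits other proteins. Klf2, Klf4, Klf6 and Klf7 belong to the branch that mostly activates transcription. Klf3 recruits the corepressor CtBP, and Klf9, Klf10, Klf13 and Klf16 recruit the corepressor SIN3A. Klf15 stands outside these branches and is known for its response to glucocorticoids and for its role in metabolism. In neural cells, KLF genes are known for control of stem cell state, of proliferation and of axon growth. Several of them are transcribed quickly after growth factor signals.

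Promoter sequences from the RefSeq table for GRCm38.p6, each running from 250 bases upstream to 50 bases downstream of the start site, were matched for 8 of the 10 genes, with Klf10 and Klf16 unmatched. The stretches upstream of both the RefSeq and the GENCODE vM21 start are printed 5′ to 3′ for 3 of them. Klf4 was chosen because its gene body carried the only called change, Klf2 because it had the next largest estimate, and Klf15 because it had the lowest. Capitals mark the GC boxes, the CACCC boxes and the MEF2 site, searched on both strands.
Klf4, chr4:55532476-55532725, minus strand: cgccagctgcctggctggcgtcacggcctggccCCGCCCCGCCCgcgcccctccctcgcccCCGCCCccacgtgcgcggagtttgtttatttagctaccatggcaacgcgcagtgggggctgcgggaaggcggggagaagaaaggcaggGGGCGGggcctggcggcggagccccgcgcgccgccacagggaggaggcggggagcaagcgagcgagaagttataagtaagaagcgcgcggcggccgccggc
Klf2, chr8:72318812-72319032, plus strand: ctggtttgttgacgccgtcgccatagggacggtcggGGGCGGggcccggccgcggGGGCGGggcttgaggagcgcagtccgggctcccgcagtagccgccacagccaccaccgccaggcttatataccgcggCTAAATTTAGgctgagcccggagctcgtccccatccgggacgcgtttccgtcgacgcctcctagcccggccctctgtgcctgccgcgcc
Klf15, chr6:90462326-90462575, plus strand: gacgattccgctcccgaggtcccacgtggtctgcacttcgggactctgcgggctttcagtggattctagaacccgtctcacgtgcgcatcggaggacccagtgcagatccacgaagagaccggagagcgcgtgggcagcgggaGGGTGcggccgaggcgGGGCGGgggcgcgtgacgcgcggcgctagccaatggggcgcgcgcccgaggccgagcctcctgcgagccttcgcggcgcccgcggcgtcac

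The Klf4 stretch has a GC content of 74.0% and holds 4 GC boxes, 2 of which share a base, and 1 E-box (CACGTG) that is not capitalised. Klf2 holds 2 GC boxes, the single MEF2 site of the group at positions -118 to -109 from the RefSeq start, and a CACCC box further downstream than the printed stretch. Klf15 holds 1 GC box, 1 CACCC box and 2 E-boxes, and a further E-box spans its start site. A GC box, searched with the letters GGGCGG, was found in 7 of the 8 KLF promoters, all but Klf9, and in 35.9% of the 27025 promoters in the table. A CACCC box was found in 6 of 8, all but Klf4 and Klf6, against 56.7% of all promoters. These are the letters that KLF proteins themselves bind, and the promoters hold them as a description of sequence only.

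The remaining motifs were sparser. An E-box was present in 3 of 8 (Klf4, Klf6 and Klf15) against 7.24% of all promoters, and a CCAAT box (CCAAT) in 4 of 8 (Klf6, Klf9, Klf13 and Klf15) against 37.9%. The MEF2 site, present in Klf2, was found in 3.26% of all promoters. No KLF promoter held a TATA box (TATAAA, 14.2% of all promoters), a cyclic AMP response element (TGACGTCA, 1.88%) or a CArG box (1.57%) in the window searched.

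In WT NPCs, the KLF promoters were mostly well occupied. Promoter windows, from 400 bases upstream to 100 downstream of the transcription start site (TSS), were compared as TMM-scaled CPM, which are reads relative to the library total, per kb. Klf6 was highest at 58.3 ± 21.7 CPM per kb (SD, n = 3), in percentile 99.5 of all promoters, followed by Klf10 at 38.3 ± 12.1 and Klf7 at 36.4 ± 15.5. Klf13 (30.4), Klf4 (26.0), Klf16 (19.5), Klf3 (17.6) and Klf15 (13.4) came next in mean CPM per kb. Klf9 at 9.79 ± 3.04 and Klf2 at 9.13 ± 1.58 were lowest. In this order the WT ranges of all 9 neighbouring pairs of genes overlapped, although 5 of the 9 pairs, such as Klf6 over Klf10, kept their order in 3 of 3 WT libraries. Of the 10 promoters, 8 lay above the median of all genes.

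The order along gene bodies was different. Gene bodies, from 100 bases after the TSS to 100 before the TES, were led by Klf10, an early response gene induced by TGF-beta, at 10.0 ± 5.82 CPM per kb (SD, n = 3), followed by Klf6 at 5.16 ± 1.15 and Klf3 at 3.77 ± 1.33. Klf7 (2.81), Klf15 (2.64), Klf13 (2.14), Klf16 (2.01), Klf2 (1.74) and Klf9 (1.46) followed, and Klf4 was lowest at 1.13 ± 0.365 CPM per kb, in percentile 32.6. With gene lengths from GENCODE vM21, Klf4 had rank 5 of 10 at its promoter and rank 10 over its gene body. The Klf15 gene is 30761 bases long in RefSeq, against 12663 in GENCODE. The Klf15 level per kb, and so the last place of Klf4, depend on the length used. All 9 neighbouring pairs again had overlapping WT ranges, and 3 of them kept their order in 3 of 3 WT libraries. In the TES window, from 100 bases before to 2000 after the TES, mean levels ran from 5.99 CPM per kb in Klf6 to 0.939 in Klf2, and Klf9 over Klf4 was the single neighbouring pair whose WT ranges did not overlap.

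**Figure D1:**
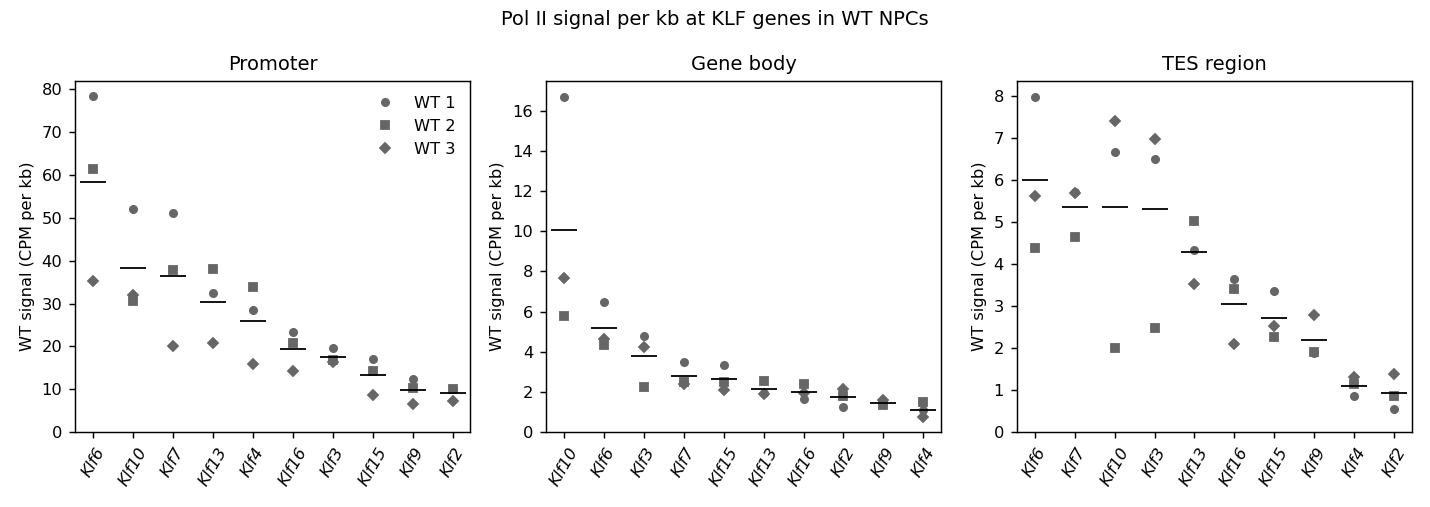
Pol II signal in WT NPCs (y axes, TMM-scaled CPM per kb) for the 10 KLF genes (x axes, ordered by mean) in the promoter, the gene body and the TES region. Points are the 3 WT libraries and bars their means. Klf6 leads the promoters at 58.3 and Klf10 leads the gene bodies at 10.0. With GENCODE lengths, Klf4 is last over the gene body at 1.13.

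In the KO cells, 1 of the 10 KLF gene bodies passed the limma-voom test at an adjusted p under 0.1, and this was Klf4, which rose. Of all 12107 gene bodies, 0.173% rose by this measure. At an unadjusted p under 0.05, 3 KLF gene bodies were higher (Klf2, Klf4 and Klf10), against 4.82% of all gene bodies, and 2 were lower (Klf13 and Klf15), against 3.59%. Across the group, 7 of 10 gene body log2 fold changes were above 0 with a median of 0.10, beside 45.3% and -0.01 over all genes. Signal was higher in 3 of 3 pairs in 5 KLF gene bodies (Klf2, Klf4, Klf6, Klf7 and Klf10), against 13.7% of all gene bodies. Klf6 and Klf7 were counted through near ties. The log2 difference was 0.0013 in pair 1 of Klf6, and 0.012 and 0.0059 in pairs 2 and 3 of Klf7. Signal was lower in 3 of 3 pairs in Klf13 and Klf15, and the share of all gene bodies lower in this way is not reported here. Signal over the gene body did not overlap between the groups, with every KO library above every WT library, in 2 (Klf2 and Klf4), against 1.5%. The 10 genes were chosen with earlier results of these data known. The shares above thus describe these genes and test nothing about KLF genes as a set. The KLF genes outside the group had gene body log2 fold changes of -0.04 in Klf5, 0.06 in Klf11 and -0.03 in Klf12.

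Klf4, one of the factors that can reprogram somatic cells to pluripotency, is encoded on chromosome 4 (55527143 to 55532466, minus strand, GRCm38). Over its gene body, the WT libraries of pairs 1, 2 and 3 held 5.62, 7.72 and 3.98 TMM-scaled CPM, and their KO partners held 11.3, 12.1 and 8.85. The lowest KO library lay above the highest WT library. These levels rest on 115, 195 and 49 reads in WT and 313, 253 and 125 in KO. The mean rose from 5.77 ± 1.87 to 10.7 ± 1.70 CPM (SD, n = 3 each), a log2 fold change of 0.88 ± 0.15 (SE, 1.85-fold, limma adjusted p = 0.0825). The rise was largest in pair 3, at 1.06 on the log2 scale, and smallest in pair 2, at 0.62. The call was lost without WT replicate 2 (1.05, limma adjusted p = 0.13) and without pair 2 (1.06, limma adjusted p = 0.236). It held without KO replicate 2 (1.05, limma adjusted p = 0.0599). It also held without WT replicate 3, the library with little Y-linked signal (0.81, limma adjusted p = 0.0136). With pairs as a block, leaving out 1 library also takes its partner out of the comparison, so these are not separate checks of single libraries. Without the replicate block the estimate was 0.97 and the limma adjusted p 1.00, and with library totals in place of TMM they were 0.90 and 0.121.

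Klf2, an activator best known from endothelial cells and quiescent T cells, is encoded on chromosome 8 (72319033 to 72321656, plus strand). Over its gene body, the WT libraries held 3.08, 4.35 and 5.20 CPM in the order of the pairs, and their KO partners 5.29, 5.99 and 7.79. The lowest KO library exceeded the highest WT library by a small margin, and every KO library exceeded its own WT partner. With a log2 fold change of 0.60 ± 0.17 (SE, limma adjusted p = 0.327), Klf2 did not pass the test across all regions. The endothelial marker Kdr had 17.7 to 45.4 CPM over its gene body in WT and 16.2 to 44.7 CPM in KO, and the other 12 markers of the endothelial and mural list were not analysed here. The part of endothelial cells in the Klf2 values was not tested.

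The other activators moved little over their gene bodies. Klf6, a growth factor and injury responsive gene on chromosome 13 (5861482 to 5870394, plus strand), had 56.5, 37.9 and 40.6 CPM in WT and 56.5, 40.2 and 49.7 in KO (log2 fold change 0.10 ± 0.08, SE, limma adjusted p = 0.782). Pair 1 was level and pair 3 gave most of the estimate. Klf7, known for its role in axon growth (chromosome 1, 64029447 to 64122282, minus strand), had 326, 231 and 223 CPM in WT and 356, 233 and 224 in KO (0.06 ± 0.05, limma adjusted p = 0.801). The 92836-base Klf7 gene carried the most Pol II of the 10 per gene and the smallest SE. Gm26649 and Gm13748 overlap its gene body on the opposite strand, and ChIP-seq reads cannot be assigned to a strand.

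**Figure D2:**
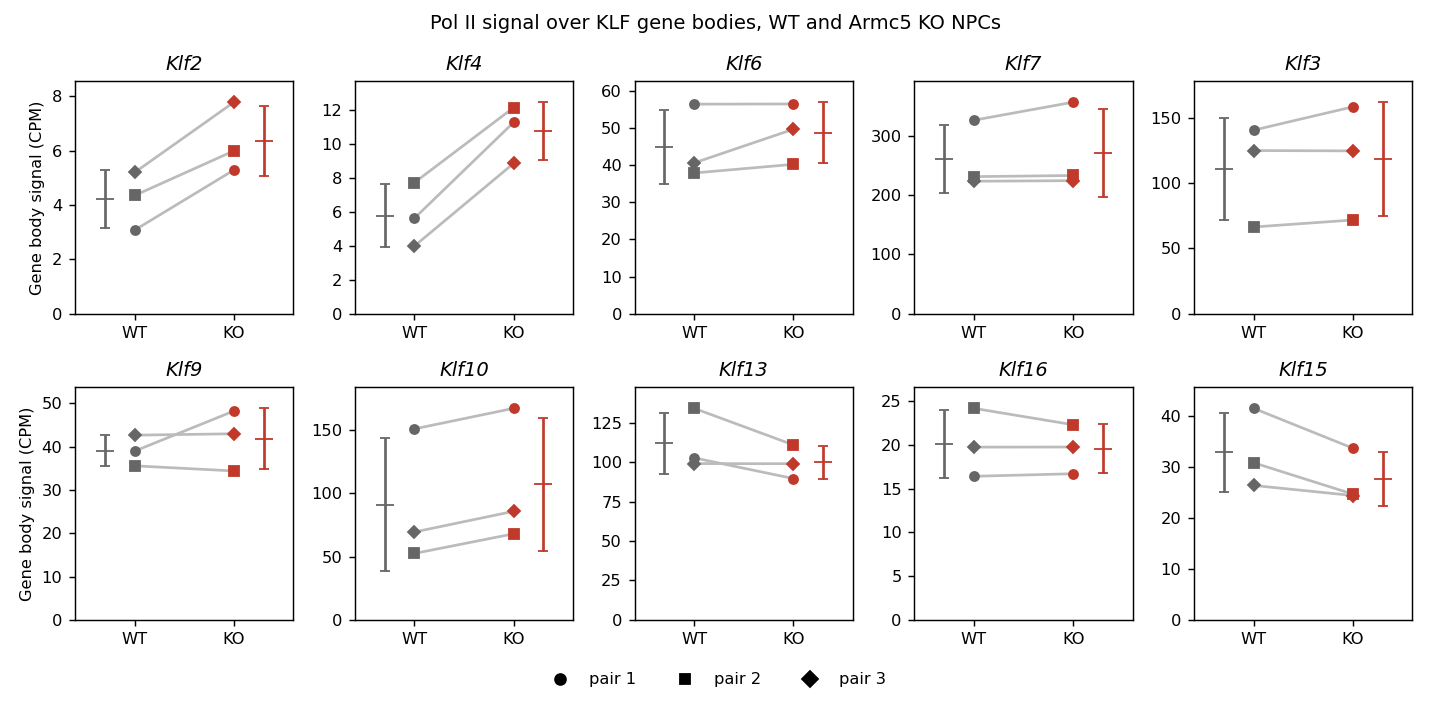
TMM-scaled CPM over the gene body of each KLF gene (y axes, each starting at 0) in WT (grey) and KO (red) libraries, with lines joining the replicate pairs and side bars giving the mean ± SD of 3 libraries. The 3 KO points lie above the 3 WT points in Klf2 and Klf4, lines rise in 3 of 3 pairs in Klf10 and fall in 3 of 3 in Klf13 and Klf15.

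Among the genes for repressors, Klf10 had the largest gene body estimate. Klf10 (chromosome 15, 38291463 to 38300706, minus strand) had 151, 52.4 and 69.4 CPM in WT and 167, 68.0 and 85.7 in KO, in the order of the pairs. It was higher in KO in 3 of 3 pairs, but the groups overlapped widely because pair 1 was far above the others in both genotypes. Its log2 fold change of 0.25 ± 0.07 (SE) did not pass the test (limma adjusted p = 0.304). Without pair 1 the Klf10 value was 0.35 (limma adjusted p = 0.0294), past the threshold, but calls over all regions also rose then, from 49 to 382. It was 0.20 without pair 2 (limma adjusted p = 0.742) and 0.25 without pair 3 (limma adjusted p = 0.299). The highest WT library stood 2.88-fold above the lowest, compared with a KO over WT fold of 1.19.

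Klf3, whose product restrains erythroid and fat cell programmes (chromosome 5, 64803388 to 64832901, plus strand), had 140, 66.3 and 125 CPM over its gene body in WT and 158, 71.6 and 125 in KO. Its log2 fold change of 0.10 ± 0.06 (SE) had a limma adjusted p = 0.698, while the WT libraries themselves spanned 2.12-fold. Pair 2 was lowest in both genotypes, as it was in Klf10. The same pair was also lowest in the TES windows of Klf3 (5.22 CPM in WT and 5.47 in KO) and of Klf10 (4.19 and 5.61), whereas the Klf3 promoter varied less, with 9.82, 8.39 and 8.20 CPM in WT and 10.5, 9.21 and 13.6 in KO. The Klf3 promoter window lies wholly within Gm20033 on the opposite strand, so its reads cannot be assigned to 1 of these genes.

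Of the remaining SIN3A-binding repressors, Klf9, a thyroid hormone and glucocorticoid responsive gene (chromosome 19, 23141226 to 23168134, plus strand), had 39.0, 35.6 and 42.6 CPM in WT and 48.2, 34.4 and 43.0 in KO (log2 fold change 0.11 ± 0.09, SE, limma adjusted p = 0.792). Without pair 1 its sign turned to -0.01. Klf13 (chromosome 7, 63886351 to 63938915, minus strand) had 103, 134 and 99.1 CPM in WT and 89.6, 111 and 99.0 in KO, lower in 3 of 3 pairs though by little in pair 3 (-0.17 ± 0.07, limma adjusted p = 0.516). E030018B13Rik and Gm27252 lie on the opposite strand within the Klf13 gene body. Klf16 (chromosome 10, 80567124 to 80577321, minus strand) had 16.4, 24.2 and 19.7 CPM in WT and 16.7, 22.3 and 19.8 in KO (-0.04 ± 0.10, limma adjusted p = 0.941). The WT and KO ranges of these 3 genes overlapped.

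Klf15 had the lowest gene body estimate of the group. The gene (chromosome 6, 90462576 to 90475238, plus strand) held 41.6, 30.9 and 26.4 CPM in WT and 33.7, 24.7 and 24.4 in KO. Signal was lower in KO in 3 of 3 pairs, with overlapping groups, and the log2 fold change of -0.27 ± 0.09 did not pass the test (SE, limma adjusted p = 0.438). Klf9, Klf13 and Klf15 are all known glucocorticoid responsive genes, and their gene body estimates were 0.11, -0.17 and -0.27.

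At the promoters, none of the 10 KLF genes passed the adjusted threshold, against 0.173% of all promoters in either direction. At an unadjusted p under 0.05, 1 KLF promoter was higher (Klf2), against 7.55% of all promoters, and 1 was lower (Klf6), against 2.4%. The log2 fold changes were above 0 in 6 of 10 with a median of 0.08, beside 54.8% and 0.03 over all promoters. Klf2 had 4.98, 5.06 and 3.66 CPM in WT and 8.35, 7.10 and 4.67 in KO, higher in 3 of 3 pairs with overlapping groups (0.56 ± 0.16, SE, limma adjusted p = 0.348). Its promoter and gene body estimates, 0.56 and 0.60 on the log2 scale, were thus close to each other.

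Klf6 had 39.2, 30.7 and 17.6 CPM at its promoter in WT and 34.5, 24.0 and 15.5 in KO, lower in 3 of 3 pairs while its gene body was not (-0.25 ± 0.09, SE, limma adjusted p = 0.501). The Klf4 promoter had 14.2, 16.9 and 7.96 CPM in WT and 22.2, 13.1 and 10.4 in KO, and its log2 fold change of 0.22 ± 0.17 did not pass the test (limma adjusted p = 0.778). Pairs 1 and 3 were higher and pair 2 lower, and without pair 1 the estimate was -0.13. Pair 3 had the lowest Klf4 and Klf6 promoter signal within each genotype, as it had the lowest promoter share over all genes. The Klf16 promoter was lower in 3 of 3 pairs, with 11.7, 10.4 and 7.15 CPM in WT and 8.53, 10.0 and 4.88 in KO (-0.32 ± 0.15, limma adjusted p = 0.61). The 6 other KLF promoters had log2 fold changes from -0.15 in Klf15 to 0.28 in Klf3, and those of Klf3 and Klf9 were higher in 3 of 3 pairs. The shares of all promoters higher or lower in 3 of 3 pairs are not reported here.

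The TES regions of the KLF genes carried no called change. None passed the adjusted limma test, against 0.0248% of all TES regions, and none had an unadjusted p under 0.05, against 6.24%. Log2 fold changes ran from -0.31 ± 0.16 in Klf15 to 0.12 ± 0.13 in Klf7 (SE), with a median of -0.05 and 3 of 10 above 0, beside -0.08 and 34.4% over all TES regions. Klf4 had 1.81, 2.41 and 2.76 CPM in WT and 2.56, 1.53 and 2.55 in KO (-0.06 ± 0.26), and Klf2 had 1.17, 1.82 and 2.92 in WT and 1.44, 1.73 and 2.34 in KO (-0.05 ± 0.25). Both groups overlapped in each gene. With 24 to 71 reads per library, these 2 genes had the largest SEs of the 10. The edgeR test also called 0 KLF promoters and 0 KLF TES regions, and so did DESeq2, which gave no adjusted p for the TES regions of Klf2 and Klf4.

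**Figure D3:**
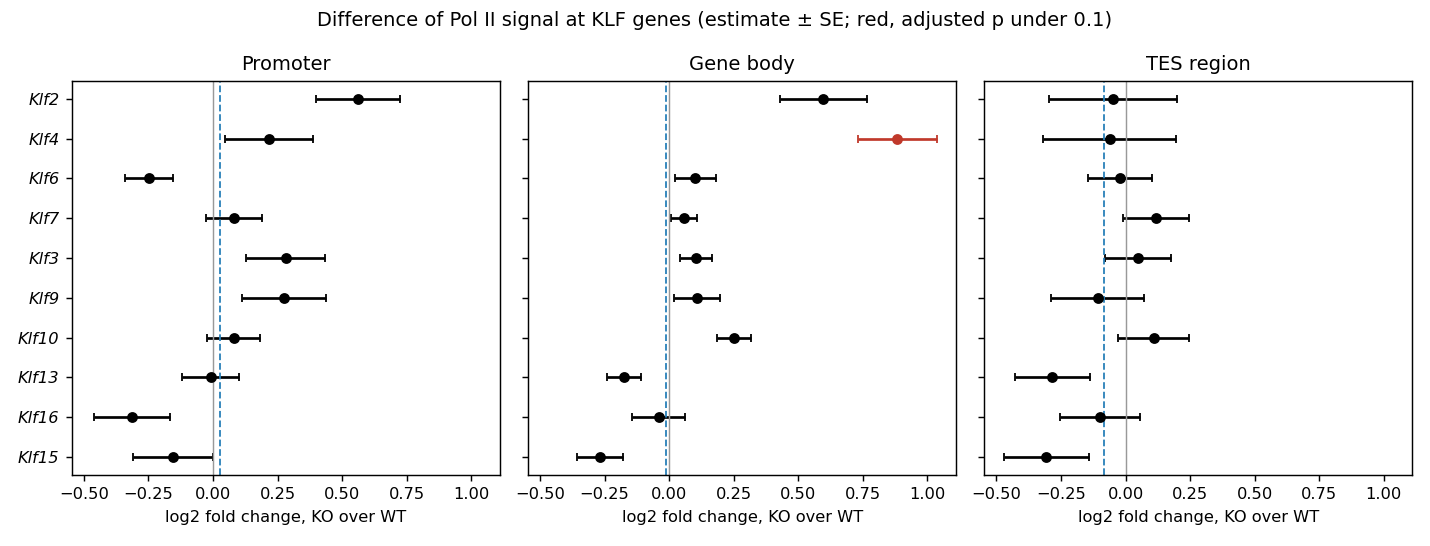
Log2 fold change of Pol II signal in KO over WT (x axes, points with SE bars from limma-voom) for each KLF gene in the promoter, the gene body and the TES region. The blue dashed line is the median of all genes in that region (0.03, -0.01 and -0.08), and red marks the single call, the Klf4 gene body at 0.88.

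The ratio of promoter to gene body counts, a pausing index, describes how much of the Pol II on a gene sits near its start. Per base, the Klf4 promoter carried 22.8-fold the density of its gene body in WT, in percentile 95.4 of all genes, whose median was 6.76-fold. In KO the Klf4 ratio was 13.9-fold. The log2 ratio of counts was 1.34, 1.13 and 0.99 in WT and 0.98, 0.11 and 0.23 in KO, in the order of the pairs. The log2 change was -0.71 ± 0.22 (SE, limma adjusted p = 0.317), short of the threshold. Leaving out pair 1, or either of its libraries, gave -0.89 each time, with a limma adjusted p of 0.103, 0.099 or 0.106, on either side of the threshold. With the TES region added to the gene body, close to the form of the index in the study's methods, the Klf4 change was -0.47 (limma adjusted p = 0.482).

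No KLF gene passed the adjusted threshold for this ratio, against 0.0331% of all genes, and Klf4 alone was lower at an unadjusted p under 0.05, against 3.65%. The Klf4 ratio shares its gene body reads with the gene body test, so it is not a separate line of evidence for the rise there. Klf6, at 10.9-fold per base in WT and 8.44-fold in KO, was lower in 3 of 3 pairs (-0.37 ± 0.18, SE, limma adjusted p = 0.49). Klf2 showed little change of the ratio (5.32-fold and 5.04-fold per base, -0.08 ± 0.19). The other 7 log2 changes of the ratio ran from -0.32 in Klf16 to 0.23 in Klf3.

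The ratio of TES to gene body counts describes the other end of the gene. In WT, Klf4 had a TES density of 1.01-fold its gene body density per base, and Klf2 and Klf10 had 0.521-fold and 0.511-fold, against a median of 1.15-fold over all genes. In KO, the ratio was 0.498-fold in Klf4 and 0.334-fold in Klf2. Over all genes the median log2 change of this ratio was -0.08. Klf4 and Klf2 were both lower in 3 of 3 pairs, with log2 changes of -1.02 ± 0.20 (SE, limma adjusted p = 0.403) in Klf4 and -0.64 ± 0.18 (limma adjusted p = 0.564) in Klf2. These 2 were the only KLF genes that were lower at an unadjusted p under 0.05, against 5.84% of all genes, and none passed the adjusted threshold, against 0.00828%. Without pair 1, the Klf4 value was -1.28 (limma adjusted p = 0.00113), past the threshold. The test of regions also called more without pair 1, 382 regions against 49. How many of these ratios were called over all genes in that setting is not reported here. In both genes it was the gene body count that differed most, and the TES counts were the low ones given above.

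**Figure D4:**
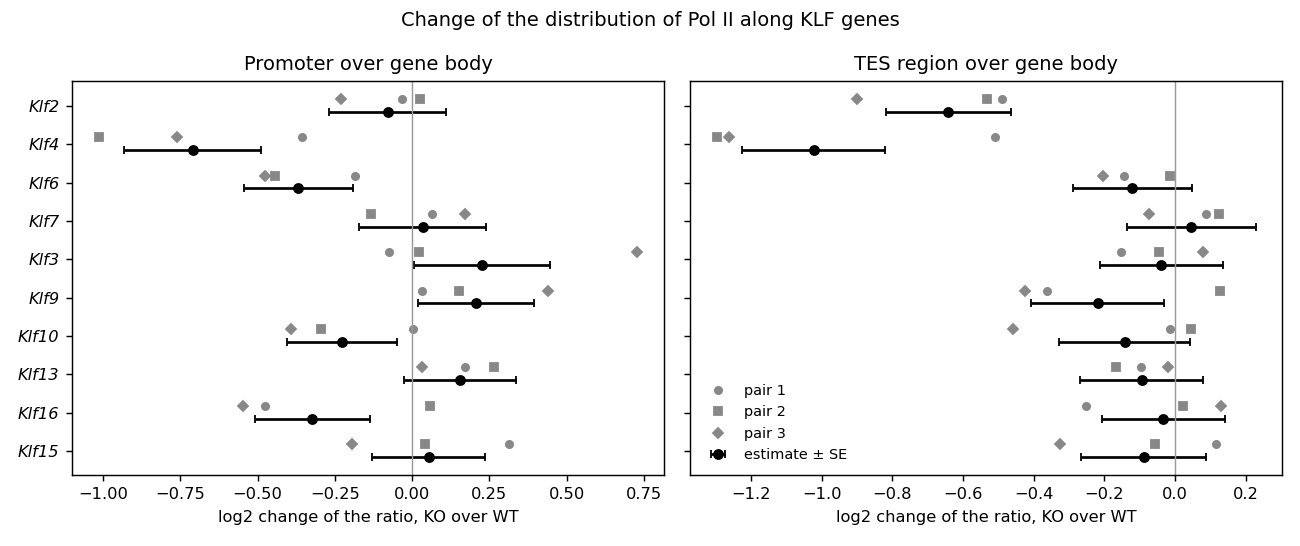
Log2 change in KO over WT (x axes) of the promoter to gene body ratio and of the TES to gene body ratio for each KLF gene, with grey points for the 3 pairs and black points with SE bars for the limma estimate. All 3 pairs lie below 0 in both panels for Klf4 (-0.71 and -1.02) and Klf6, and in the TES panel also for Klf2 (-0.64) and Klf13 (-0.09). Over all genes the median log2 change was 0.01 for the promoter ratio. It was -0.08 for the TES ratio, near the values of Klf13 and Klf6 (-0.12). The share of all genes below 0 in 3 of 3 pairs is not reported here.

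The genes whose gene body differences between pairs were most like those of Klf4 were found by the root mean square distance of the 3 within-pair log2 differences, over the 11749 genes whose gene bodies averaged 100 reads or more. They were Arc, a synaptic immediate early gene, at a distance of 0.132, Cebpa, which encodes the transcription factor C/EBP alpha, at 0.148, and Rgs2, a regulator of G protein signalling, at 0.187. As a description, Cebpa had 5.37, 6.09 and 5.52 CPM in WT and 10.2 in each KO library, so its libraries were more alike within a genotype than those of Klf4. The 3 within-pair log2 differences were 1.13, 0.72 and 1.15 in Arc and 0.63, 0.59 and 1.12 in Rgs2, beside 0.94, 0.62 and 1.06 in Klf4.

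Of 16 other KLF and SP genes, which encode the family that shares these zinc fingers, 7 were measured and none passed the adjusted limma test in any region. Over gene bodies the 7 had a median log2 fold change of 0.00, and 1 was higher past an unadjusted p of 0.05, beside 4.82% of all gene bodies, Sp9 (0.28 ± 0.11, SE, limma adjusted p = 0.552). The next smallest p was that of Sp3 (0.12 ± 0.06, limma adjusted p = 0.655), which encodes a widely expressed GC box factor. The 3 other KLF genes gave gene body values of -0.04 ± 0.11 in Klf5, 0.06 ± 0.11 in Klf11 and -0.03 ± 0.05 in Klf12. At promoters 3 of the 7 were higher at an unadjusted p under 0.05, beside 7.55% of all promoters, and they are named after their values were seen. These were Sp1 (0.97 ± 0.24, limma adjusted p = 0.241), Sp4 (0.38 ± 0.15, limma adjusted p = 0.522) and Sp9 (0.74 ± 0.26, limma adjusted p = 0.479). The counts were low at 2 of them, with 41, 61 and 30 WT reads at the Sp1 promoter and 32, 37 and 7 at that of Sp9.

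The partners and regulators of KLF proteins showed no called change either. All 19 KLF cofactors and modifiers were measured, with 0 called in any region and a gene body median of -0.02. The gene body value of Crebbp, which encodes an acetyltransferase, was -0.08 ± 0.05 on the log2 scale (SE, limma adjusted p = 0.723). Of 25 regulators known to act on KLF genes, 23 were measured, Mef2c and Nr3c1 were not analysed here, and 0 were called, with a gene body median of -0.04. Egfr, the receptor for the EGF that sustains these cultures, was the 1 gene body of the 23 past an unadjusted p of 0.05 (-0.15 ± 0.05, limma adjusted p = 0.426). Over all gene bodies, 3.59% were lower at that p. Smad3, a transducer of TGF-beta, came next (-0.13 ± 0.08, limma adjusted p = 0.688).

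Of 14 glucocorticoid response genes, 10 were measured and 0 were called, with 8 of 10 gene body log2 fold changes above 0 and a median of 0.05, beside 45.3% and -0.01 over all genes. Sgk1, a kinase gene induced by glucocorticoids, had a positive estimate (0.17 ± 0.06, SE, limma adjusted p = 0.438) and Mt1, a metallothionein gene, had a negative one (-0.30 ± 0.13, limma adjusted p = 0.578) over the gene body, both short of the adjusted threshold. The promoter median was 0.28, with 2 of 10 higher at an unadjusted p under 0.05, Fkbp5 (0.95 ± 0.34) and Sgk1 (0.60 ± 0.26), beside 7.55% of all promoters. The Sgk1 promoter had only 14, 54 and 8 reads in WT. The TES median was -0.09, with 2 of 10 lower at that p, the metallothionein genes Mt1 (-0.63 ± 0.15) and Mt2 (-0.68 ± 0.20), beside 6.24% of all TES regions in either direction. Fkbp5 and Mt2 are named after their values were seen, and none of these 4 passed the adjusted limma test.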

How the data were processed

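The authors fixed NPCs, precipitated POLR2A-bound chromatin and counted reads with HOMER. They deposited whole-number counts per gene and region, without normalization, and log2 CPM made from them. Before deposit the authors took out genes that lacked signal in the KO. Tools named in the submitters' processing notes are BWA, Trimmomatic, Picard, bcl2fastq 2.20, HOMER, MACS2, limma and edgeR, with GRCm38 (mm10) as the build. Which annotation defined the regions is not stated in these sources. Gene positions and lengths came from GENCODE vM21 (12041 of 12107 symbols matched), and it is assumed that the counted windows start at the same sites. The RefSeq start lies 893 bases from the GENCODE start in Klf7 and 133 in Klf3. The Klf15 gene is 30761 bases long in RefSeq and 12663 in GENCODE, so its gene body and TES windows are uncertain.

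All 36321 regions were scaled together with TMM (edgeR 4.0.16) and tested with limma-voom (limma 3.58.1, R 4.3.3), two-sided, blocking on replicate pair, with p-values adjusted after Benjamini and Hochberg across the table and the threshold for a call set at 0.1. Levels are TMM-scaled CPM. Log2 ratios, with 0.5 added to each count and a mean of at least 10 counts, were tested with limma and a trend. The scripts were tested on simulated data. Alternatives included edgeR's quasi-likelihood test and DESeq2 1.42.0. Groups and replicate numbers came from the sample titles. The study's methods describe biological replicate pairs, and same-numbered libraries deviated together from their group means (correlations of 0.889, 0.755 and 0.860 over gene bodies, and from 0.606 to 0.766 elsewhere).

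All members were named. From each list the called genes were named, or otherwise those with the 2 smallest gene body p, with only levels for marker lists, and 3 genes nearest in pattern to the member with the smallest gene body p. A gene that this rule names is not reported here. The members and lists were chosen with earlier results of these data known. Gene body signal of neuronal (9 of 11 measured), astrocyte (5 of 8), oligodendrocyte lineage (4 of 7), mesenchymal (1 of 7) and microglia and blood markers (1 of 11) had median percentiles of 15.3, 62.3, 79.5, 14.1 and 5.52.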

Additional observations from a re-analysis of the deposited data

How the results depend on the processing

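Of 9 alternatives that kept all libraries, 6 kept the call of the Klf4 gene body, including edgeR's quasi-likelihood test (adjusted p = 0.0594) and DESeq2 (adjusted p = 0.0379), with log2 fold changes from 0.87 to 0.97 over the 9. The number of KLF gene bodies called fell from 1 to 0 with no replicate block, with library totals in place of TMM, and with each region type fitted on its own, where the Klf4 limma adjusted p was 1.00, 0.121 and 0.215. It ranged from 0 to 2 when a replicate was left out, and the 2 were Klf4 and Klf10. Without the replicate block no region of the whole table was called, against 49 with it, 11 without pair 2 and 382 without pair 1. Leaving out genes on chromosomes X and Y gave 125 called regions, and the Klf4 gene body limma adjusted p was then 0.0364. KLF promoters and TES regions called stayed at 0 in every setting run. The promoter to gene body ratios called ranged from 0 to 1, and so did the TES to gene body ratios, when a replicate was left out. How many ratios were called over all genes in those settings is not reported here, so these counts say nothing particular to KLF genes. The cause of these differences was not tested.

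Small values changed sign. The Klf13 promoter was 0.0075 with library totals. With region types on their own, the TES values were 0.016 in Klf2, 0.016 in Klf4 and 0.066 in Klf6. The Klf6 TES value was 0.042 with no replicate block and 0.0059 from the deposited log2 CPM, and the Klf2 promoter ratio was 0.093 when the TES region was added to the gene body. When a replicate was left out, promoter values ranged from -0.017 to 0.0044 in Klf13, -0.13 to 0.58 in Klf4 and -0.032 to 0.20 in Klf7. Gene body values ranged from -0.074 to 0.024 in Klf16 and -0.022 to 0.20 in Klf9, and TES values from -0.19 to 0.10 in Klf2, -0.40 to 0.24 in Klf4, -0.070 to 0.089 in Klf6 and -0.23 to 0.026 in Klf9. Promoter to gene body ratios ranged from -0.077 to 0.18 in Klf15, -0.026 to 0.38 in Klf3 and -0.034 to 0.12 in Klf7, and TES to gene body ratios from -0.24 to 0.016 in Klf10, -0.19 to 0.030 in Klf15, -0.11 to 0.078 in Klf16 and -0.10 to 0.018 in Klf3. Low counts limit Klf2 and Klf4 most.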
